A study of Mus musculus with 18 samples.

Results

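Interleukin-6 family signalling was followed through 10 genes of expanded and unexpanded mouse back skin. The genes were the ligands Il6, Il11, Lif and Osm, the receptors Il6ra, Il11ra1, Lifr and Osmr, the shared receptor chain Il6st, and the feedback inhibitor Socs3. They were chosen by symbol, and each was 1 of the 32285 genes in all 10 matrices of unique molecular identifier (UMI) counts. Across the kept cells Il6 had 81343 UMIs, Il11 5071, Lif 4761, Osm 16723, Il6ra 27592, Il11ra1 51721, Lifr 14692, Osmr 32641, Il6st 81712 and Socs3 204279.

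All mice had surgery in which a path was opened under the back skin from a cut near the tail towards the neck. Expanded mice (EXP) received a hydrogel expander in that path, and control mice (CTRL) received none, so the surgical wound was common to both arms. The labels give no strain, sex or age. Live cells were sorted at days 1, 2 and 4, and per arm there were 2 libraries of day 1, 2 of day 2 and 1 of day 4, which gives 5 CTRL and 5 EXP libraries of 3' single-cell mRNA. The mice of an arm in a sequencing round were pooled in 1 reaction, and 8 of the libraries carried hashtag antibodies that separated 14 CTRL and 14 EXP mice. A p-value over libraries measures the spread between these pools. A p-value with mice as units measures mainly the spread between mice that shared a reaction.

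The IL-6 family is a group of cytokines that act through receptor complexes containing gp130, the product of Il6st. IL-6 and IL-11 bind their own ligand-binding chains, IL-6 receptor alpha and IL-11 receptor alpha, which then engage a pair of gp130 molecules. LIF joins gp130 to the LIF receptor, and mouse oncostatin M joins gp130 mainly to the oncostatin M receptor. Janus kinases on these chains phosphorylate STAT3, STAT3 induces Socs3, and SOCS3 protein binds gp130 and dampens the signal. In skin these cytokines are known from wound repair, keratinocyte activation and fibrosis.

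The filters kept 44783 cells, 27874 CTRL and 16909 EXP, with 1884 to 7709 per library, and gene UMIs per library ran from 17726739 to 75470722. Clustering gave 40 clusters, of which 32 carried enough markers to be named; these formed 17 classes, and the other 8 clusters, with 5957 cells, were left unnamed. Names rest on marker genes and stand for "fibroblast-like" and so on; pericytes below include smooth muscle-like cells, macrophages include monocyte-like cells, and dendritic cells include Langerhans-like cells. Library pairs shared 1 to 23 cell barcodes, at most 0.377% of the smaller library. Several classes were made up of different clusters in the arms. Macrophages were 83.0% cluster 7 (C1qa, Folr2, Cd209f) in CTRL and 91.9% cluster 23 (Chil3, Ly6c2, Msr1) in EXP, and fibroblasts were 34.1% cluster 3 in CTRL and 46.1% cluster 0 (Tnc, Timp1, Tnfrsf11b) in EXP. The EXP library of day 1, round 1 stood apart from the other EXP libraries for Il11ra1 in 5 units and for Lifr in macrophages. That library and its CTRL partner, which had no hashtags, were left out together as a further check. Transcripts of other cell types were counted per class as context: in fibroblasts, 6 of 6 fibroblast genes and 3 of 5 macrophage genes were lower, 2 of 2 neutrophil genes higher, 1 of 5 keratinocyte genes lower and the 1 endothelial gene tested not called.

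Levels below are UMIs of a gene per 1000000 UMIs (CPM) of a class in a library. Differences are log2 fold changes, EXP minus CTRL, from edgeR's quasi-likelihood test on summed counts with day as a covariate. A gene was called at a Benjamini-Hochberg adjusted p under 0.05 over all genes of the class. The fit rescales libraries (TMM), so its fold can differ from the ratio of the mean CPM values, as it does for Il6 in fibroblasts. In checks that left out 1 library, dropping either library of day 4 took day 4 out of the comparison, because day is a covariate. Those fits are therefore nearly the same test, and the counts of fits below include both.

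Over 14 classes and unnamed clusters, 88 member and class pairs had enough counts to be tested, and 24 were called. Of these, 4 were higher in EXP (6.23% of all gene and class pairs were called higher) and 20 were lower (6.88%); in either direction 13.1% of all pairs were called. The higher calls were Il11 and Lifr in fibroblasts and Il11 and Il6st in pericytes. The lower calls were Il6st in 4 classes, Lifr in 4, Osmr in 3, Il6ra in 2, Il11ra1 in 1, Socs3 in 3, Il11 in 2 and Il6 in 1. Receptor chains also made up most of the pairs tested, so these counts do not set them apart. By class, members called were 5 of 9 in pericytes (19.1% of all genes tested were called), 5 of 7 in endothelial cells (13.2%), 5 of 9 in macrophages (25.9%), 3 of 9 in fibroblasts (33.6%), 3 of 8 in dendritic cells (20.2%), 2 of 6 in basal keratinocytes (18.9%) and 1 of 5 in lymphatic endothelial cells (12.0%). None was called by edgeR in Schwann cells (0.138% of genes called), T cells (0.386%), dermal papilla cells (3.74%) or the unnamed clusters 6 (4.34%), 20 (0.680%), 27 (1.42%) and 39 (0.162%). Of the 35 member and class pairs there, 6 had an unadjusted p under 0.05 and DESeq2 called 0.

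**Figure D1:**
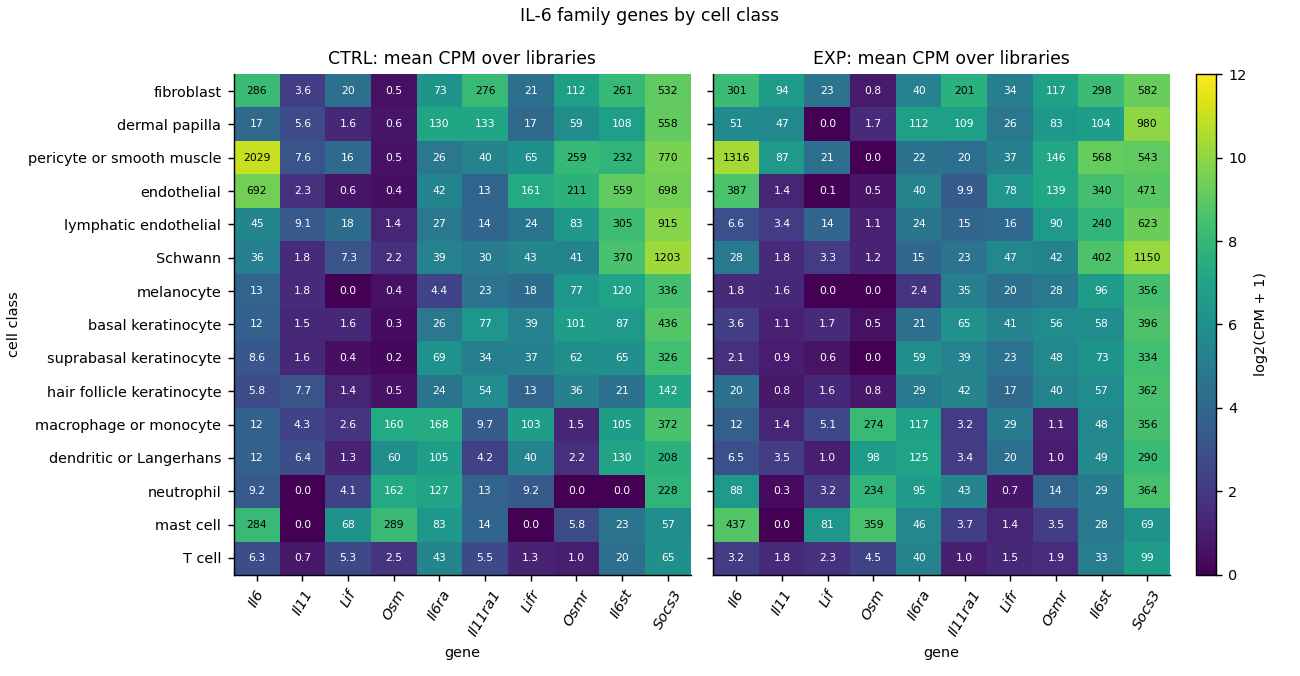
Mean level of each gene (columns) in each cell class (rows) for CTRL (left) and EXP (right); the number in a cell is the mean CPM over libraries and the colour its log2(CPM + 1). Of the rows shown, which leave out unnamed cluster 35, Il6 is highest in pericytes, at 2029 CPM in CTRL and 1317 in EXP, and Osm in the mast cell, macrophage and neutrophil rows.

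Il6, the founding cytokine of the family, was a stromal and vascular transcript. Orders of levels here and below cover classes and clusters with at least 20 cells in at least 4 libraries of an arm. Among these the Il6 level was highest in pericytes, with a mean of 2029 ± 716 CPM in CTRL (SD, n = 5) and 1317 ± 363 in EXP (SD, n = 5). Endothelial cells came next, at 692 ± 184 and 387 ± 141 CPM (SD, n = 5 each), then fibroblasts, at 286 ± 93.2 and 301 ± 75.2 CPM (SD, n = 5 each). In both arms pericytes did not overlap with endothelial cells over libraries, whereas endothelial cells overlapped with fibroblasts, and CTRL fibroblasts with CTRL mast cells (284 ± 153 CPM, SD, n = 5). Of CTRL pericytes 66.5% held an Il6 UMI (exact 95% interval 62.9 to 70.0%), at a median of 5329 UMIs per cell. The share in CTRL T cells, a class not known for Il6, was 2.75% (1.89 to 3.87%) at a median of 3637 UMIs. Intervals here and below cover counting error only.

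Fibroblasts nevertheless held the largest mean share of Il6 UMIs in both arms. They were the most numerous class in CTRL and over all EXP cells, while macrophages outnumbered them in the EXP libraries of days 2 and 4. Fibroblasts carried 67.2 ± 12.9% of a CTRL library's Il6 UMIs and 49.4 ± 13.9% of an EXP library's (SD, n = 5 each), with 42.1% and 18% of the cells. Pericytes carried 16.0 ± 5.81% and 19.4 ± 11.0% from 2.46% and 1.97% of the cells. Endothelial cells carried 12.8 ± 6.53% and 18.7 ± 13.3%. An unnamed cluster of 79 cells (cluster 35, led by Mcpt8, Il4 and Hgf) carried 4.83 ± 7.20% of the EXP Il6 UMIs, and its 2 EXP libraries with at least 20 cells, both of day 2, read 2067 and 5099 CPM, above the EXP pericyte libraries.

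**Figure D2:**
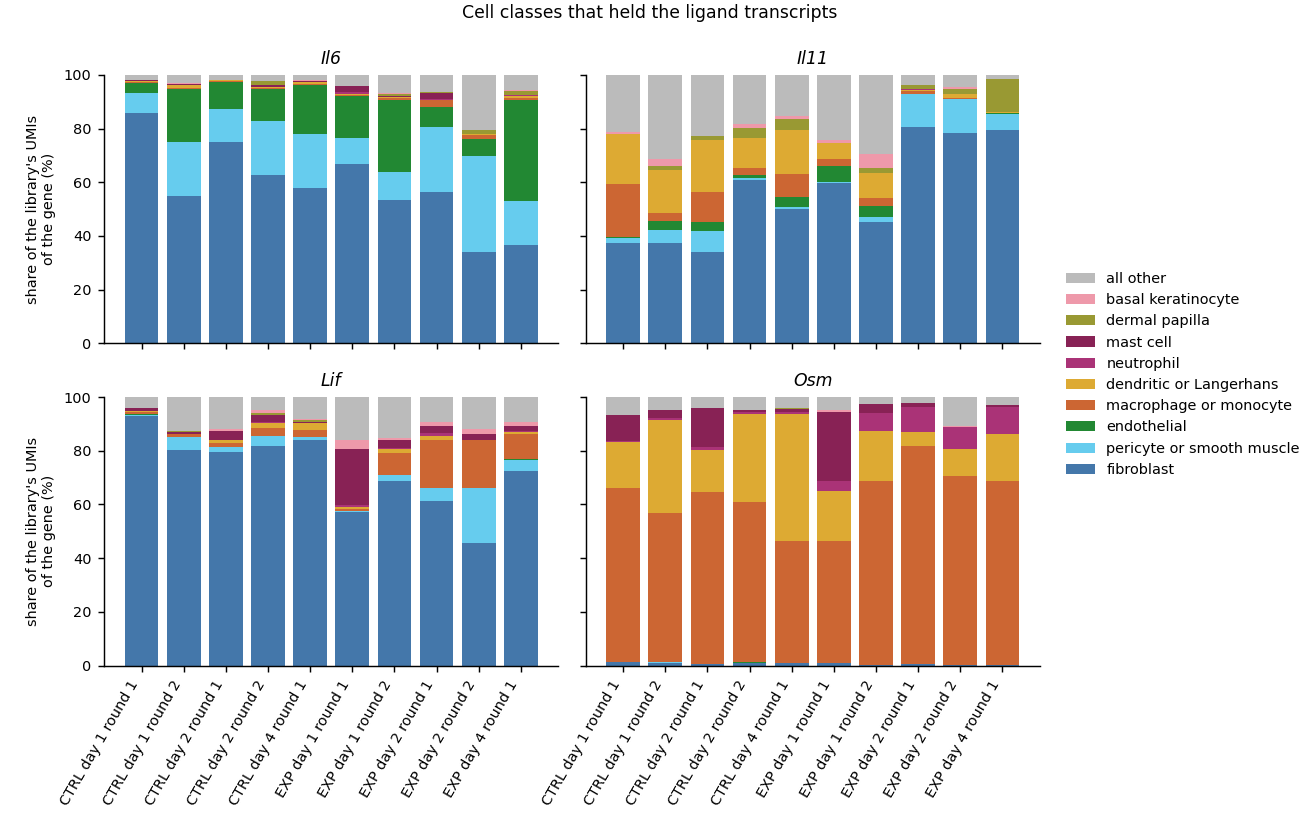
Share of each library's UMIs of Il6, Il11, Lif and Osm (vertical axis, %) by the cell class that held them; each bar is 1 library. Fibroblasts hold the largest mean share of Il6 (67.2% CTRL, 49.4% EXP), Il11 (44.0%, 68.6%) and Lif (83.7%, 61.0%), and macrophages that of Osm (57.9%, 66.8%).

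Il6 fell in endothelial cells. CTRL endothelial cells read 735 and 860 CPM at day 1 (rounds 1 and 2), 689.8 and 383 at day 2 and 794 at day 4. EXP endothelial cells read 367 and 326 at day 1, 413 and 222 at day 2 and 605 at day 4. Each EXP library was below the CTRL library of its round, while the arms overlapped across days. Il6 changed by -0.98 on the log2 scale (SE 0.22, edgeR adjusted p = 0.0137), lower in 5 of 5 pairs, against 13.2% of endothelial genes called in either direction. Without the day 1, round 1 pair it was -0.92 and was not called (adjusted p = 0.0659). Of 18 genes known to respond to tissue dissociation, 13 were also lower in endothelial cells (median log2 fold change -0.59) and none higher, and 4 of 6 fibroblast transcripts were lower there (median -2.33). Their part in the Il6 result was not tested.

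In pericytes the CTRL libraries read 2858 and 2553 CPM at day 1, 1437 and 1175 at day 2 and 2121 at day 4. The EXP libraries read 1031 and 1349 at day 1, 1906 and 1294 at day 2 and 1004 at day 4. EXP was lower at days 1 and 4 and higher in both rounds of day 2. A log2 fold change of -0.67 (SE 0.28) was not called (edgeR adjusted p = 0.102), although it was with cells thinned to 2000 UMIs (-0.79, adjusted p = 0.0234). Fibroblast Il6 ran from 171 to 412 CPM in CTRL and from 234 to 422 in EXP, with full overlap (-0.15, SE 0.28, adjusted p = 0.710). Dermal papilla cells had low Il6, 0 to 27.9 CPM in CTRL and 10.5 to 109 in EXP, higher in 4 of 4 pairs but not called (0.98, SE 0.42, adjusted p = 0.234). Over all kept cells Il6 was 224 ± 78.4 CPM in CTRL and 135 ± 20.6 in EXP (SD, n = 5 each), with a log2 fold change of -0.91 that was not called (edgeR adjusted p = 0.0597). It passed with the sequencing round as a replicate block (-0.84, adjusted p = 0.0382). In sums over all cells, fewer cells of a type and less RNA per cell cannot be told apart.

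**Figure D3:**
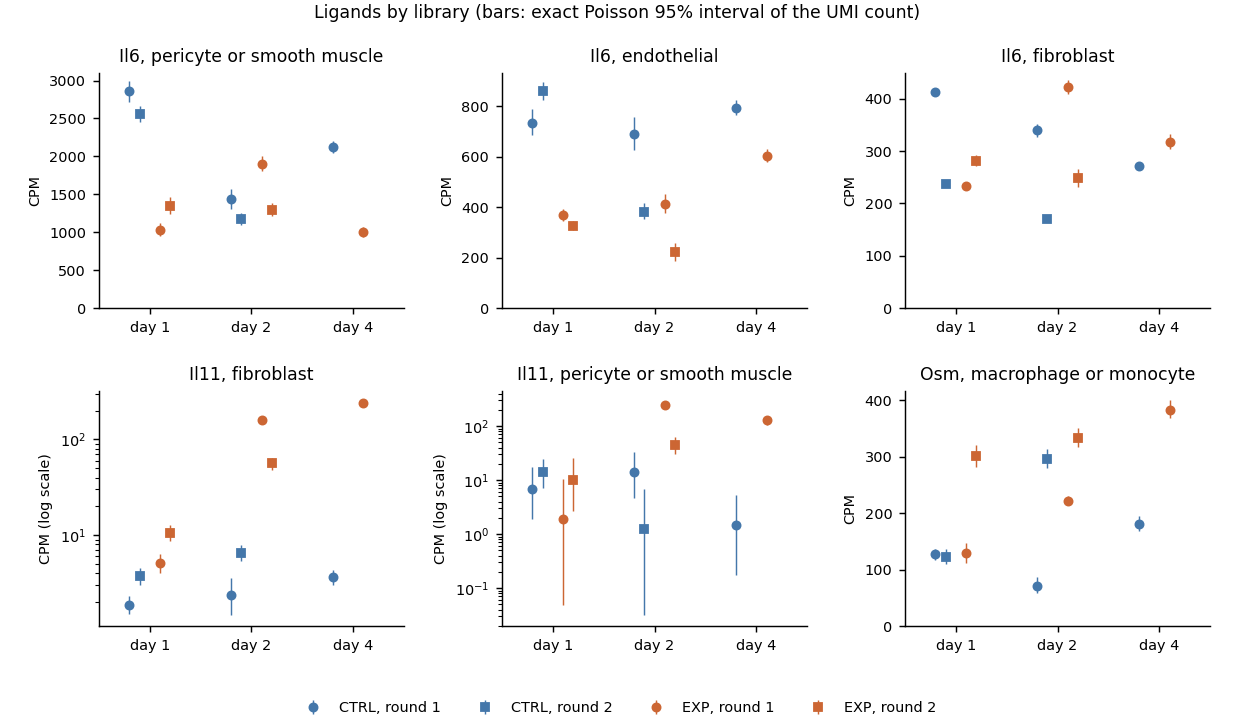
CPM of ligands in their main classes for each library by day (circles round 1, squares round 2; blue CTRL, orange EXP; bars exact Poisson 95% intervals); the Il11 panels have a log axis. EXP endothelial Il6 lies below CTRL in each round, and EXP fibroblast Il11 ranges from 5.08 CPM at day 1 to 238 CPM at day 4, against 1.87 to 6.56 in CTRL.

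Il11, a stromal cytokine studied in fibrosis, had the largest fold change of the members in the tested classes. In CTRL fibroblasts it read 1.87 and 3.75 CPM at day 1, 2.34 and 6.56 at day 2 and 3.63 at day 4. In EXP fibroblasts it read 5.08 and 10.5 CPM at day 1, 158 and 56.1 at day 2 and 238 at day 4. The 3 EXP libraries of days 2 and 4 were far above every CTRL library, and the EXP library of day 1, round 1 lay within the CTRL range. Il11 rose in fibroblasts by 3.55 on the log2 scale (SE 0.75, edgeR adjusted p = 0.00472), higher in 5 of 5 pairs, where 33.6% of genes were called. Without the CTRL or the EXP library of day 4 the change moved by more than 1.5-fold on the linear scale, down to 2.89 at the lowest, and stayed called in each fit that left out 1 library.

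The rise was also seen in hashed mice. Summed over the fibroblasts of a mouse, Il11 at day 2 ran from 0 to 11.7 CPM in 7 CTRL mice and from 65.0 to 231 in 5 EXP mice, with no overlap. At day 4 it ran from 2.73 to 4.87 CPM in 4 CTRL mice and from 12.6 to 1279 (median 43.0) in 4 EXP mice. At day 1 the ranges were 3.99 to 7.14 CPM in 3 CTRL mice and 9.13 to 12.9 in 2 EXP mice. With mice as units the log2 fold change was 5.11 (SE 0.72, edgeR adjusted p = 1.99e-06, 14 CTRL and 11 EXP mice), where 33.6% of gene and class pairs were called. These mice came from the same libraries, less the unhashed day 1, round 1 pair, and shared reactions within an arm and round. They are therefore not independent replicates of expansion. Among EXP fibroblasts 9.36% held an Il11 UMI (exact 95% interval 8.34 to 10.5%), against 1.80% (1.07 to 2.83%) of EXP basal keratinocytes; median depths were 12756 and 16114 UMIs. Among CTRL fibroblasts the share was 2.75% (2.47 to 3.07%), close to the 2.23% (1.25 to 3.65%) of CTRL basal keratinocytes, so that CTRL Il11 was not told apart from background over the whole class. CTRL cells of fibroblast cluster 0 alone read 16.1 ± 2.87 CPM, above the class value of every CTRL library.

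Pericytes showed the same direction over fewer pairs. CTRL pericytes read 6.85 and 13.9 CPM at day 1, 14.4 and 1.23 at day 2 and 1.45 at day 4, and EXP pericytes 1.88 and 9.92 at day 1, 251 and 45.0 at day 2 and 129 at day 4. EXP was lower than CTRL in both rounds of day 1 and above every CTRL library at days 2 and 4. The pericyte units were small, with 56 and 51 cells in the EXP libraries of day 1, so the lowest values rest on few UMIs. The log2 fold change was 3.38 (SE 0.92, edgeR adjusted p = 0.0233), higher in 3 of 5 pairs, against 19.1% of pericyte genes called; it was lost without the CTRL library of day 2, round 1 (adjusted p = 0.0531) and with DESeq2 (adjusted p = 0.0927). Only 5 of the 10 fits without 1 library tested it, because the gene missed the count filter in the others, as it did after thinning to 2000 UMIs. Fibroblasts held 44.0 ± 11.3% of Il11 UMIs in CTRL and 68.6 ± 15.6% in EXP (SD, n = 5 each), and the total over kept cells was 956 UMIs in CTRL and 4115 in EXP.

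In immune classes Il11 was a trace transcript and was lower in EXP. Dendritic cells read 3.02 to 9.89 CPM in CTRL and 1.70 to 8.22 in EXP (a change of -1.09 with SE 0.32, edgeR adjusted p = 0.0367; 20.2% of genes called), and macrophages 1.19 to 8.58 and 0.222 to 2.41 (-1.71, SE 0.52, adjusted p = 0.0344; 25.9% called). Both were lower in 5 of 5 pairs with overlapping arms, and these levels rest on 1 to 45 UMIs per library. Leaving out 1 library ended the dendritic call in 8 of 10 fits (adjusted p 0.0594 to 0.11) and the macrophage call in 7 of 10 (0.0505 to 0.126). Fibroblast transcripts moved with them: the summed CPM of 6 such genes had a median of 1226 in CTRL macrophages and 113 in EXP macrophages, and of 918 and 114 in dendritic cells. Their part in the Il11 result was not tested.

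The start regions of ligand genes carried different letters. RefSeq promoters on GRCm38.p6 were found for 9 members, with 12 start sites, and the 250 bases before each start were searched on both strands for a STAT pattern (TTCNNNGAA), an AP-1 pattern (TGANTCA) and an NF-kB pattern (GGGA and TTTCC, 1 base apart). Among 32851 promoters of this length 7.02% held the first, 6.75% the second and 0.356% the third. The AP-1 letters were found upstream of Il6, Lif and 1 of the Il11 starts, and the NF-kB letters upstream of Il6. A match is a run of letters, not a bound site. The 2 ligands with called changes in stromal or vascular cells are shown 5′ to 3′, with matches in capitals:
Il6 (chr5:30012864-30013113, plus strand): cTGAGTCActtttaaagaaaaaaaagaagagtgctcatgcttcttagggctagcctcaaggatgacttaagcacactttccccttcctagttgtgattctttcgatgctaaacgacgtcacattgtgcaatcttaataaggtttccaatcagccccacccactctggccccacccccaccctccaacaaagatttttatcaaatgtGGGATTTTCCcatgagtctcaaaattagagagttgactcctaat
Il11, second start (chr7:4778142-4778391, minus strand): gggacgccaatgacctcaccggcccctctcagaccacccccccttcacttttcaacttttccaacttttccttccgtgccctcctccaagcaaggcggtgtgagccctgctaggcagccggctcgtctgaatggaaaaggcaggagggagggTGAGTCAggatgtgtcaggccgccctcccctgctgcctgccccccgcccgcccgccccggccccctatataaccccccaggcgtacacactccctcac
In Il6 the AP-1 match TGAGTCA lay 249 to 243 bases before the start and the NF-kB match GGGATTTTCC 44 to 35 bases before it. In Il11 the AP-1 match TGAGTCA lay 98 to 92 bases before the second start, and the Lif match TGACTCA lay 228 to 222 bases before its start. On GRCm38 the gene bodies span 5:30013114-30019981 for Il6 and 7:4772373-4782859 for Il11; Osm (11:4236420-4241026) and Lif (11:4257557-4272514) are neighbours on chromosome 11.

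Lif, which sustains stem cells and acts on many tissues through Lifr, was a low transcript. Mast cells had the highest CTRL mean (68.1 ± 34.9 CPM, SD, n = 5), above fibroblasts in every library, and read 110, 83.5 and 48.8 CPM in the 3 EXP libraries with enough of these cells. Fibroblasts followed at 20.4 ± 6.55 CPM in CTRL and 23.3 ± 13.3 in EXP (SD, n = 5 each). Their share of Lif UMIs was 83.7 ± 5.45% in CTRL and 61.0 ± 10.5% in EXP, and that of macrophages 1.68% and 10.8%.

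In fibroblasts Lif read 26.3 and 24.4 CPM at day 1, 13.4 and 13.1 at day 2 and 24.6 at day 4 in CTRL, and 5.14, 20.2, 31.9, 19.4 and 40.0 in the EXP libraries in the same order. EXP was lower in both rounds of day 1 and higher in the 3 later pairs. The log2 fold change was -0.09 (SE 0.44, edgeR adjusted p = 0.894). In macrophages Lif ran from 1.30 to 4.94 CPM in CTRL and from 0.601 to 8.11 in EXP, higher in 4 of 5 pairs and not called (0.95, SE 0.47, adjusted p = 0.159). Lif was called by edgeR in none of the 4 classes or clusters tested (1 with an unadjusted p under 0.05; 0 by DESeq2); with the replicate block the value in unnamed cluster 6 passed (-1.58, adjusted p = 0.0410).

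Osm, which leukocytes secrete and which activates keratinocytes and fibroblasts, was a transcript of myeloid and mast cells. CTRL means were 289 ± 99.7 CPM in mast cells, 160 ± 85.6 in macrophages and 59.98 ± 39.9 in dendritic cells (SD, n = 5 each). EXP means were 274 ± 100 CPM in macrophages, 234 ± 72.7 in neutrophils and 97.9 ± 58.9 in dendritic cells (SD, n = 5 each), and 428, 408 and 240.1 CPM in the 3 EXP mast cell units. None of these neighbours in the order stood apart over libraries, except EXP dendritic cells from the next class, unnamed cluster 20. An Osm UMI was found in 40.3% of CTRL macrophages (exact 95% interval 38.5 to 42.1%) and 67.0% of EXP macrophages (65.1 to 68.9%), at median depths of 6195 and 11786 UMIs. After thinning to 2000 UMIs the shares were 22.0% and 33.8%. In fibroblasts, where Osm is at background, they were 0.484% and 0.769%.

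Macrophages held 57.9 ± 7.79% of Osm UMIs in CTRL and 66.8 ± 13.0% in EXP (SD, n = 5 each). Dendritic cells held 29.5 ± 13.1% and 14 ± 6.16%, and neutrophils 7.65 ± 2.62% in EXP. Osm counts over all kept cells were 5632 UMIs in CTRL and 11091 in EXP, in fewer EXP cells.

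In CTRL macrophages Osm read 127 and 123 CPM at day 1, 71.7 and 296 at day 2 and 181 at day 4. In EXP macrophages it read 129 and 301 at day 1, 222 and 334 at day 2 and 384 at day 4. Each EXP library exceeded its CTRL partner, by little in round 1 of day 1, and the arms overlapped. Its log2 fold change of 0.68 (SE 0.34) was not called (edgeR adjusted p = 0.159), but it passed with the replicate block (0.72, adjusted p = 0.0409). It also passed with mice as units (0.79, edgeR adjusted p = 0.000429, 14 CTRL and 12 EXP mice), although these mice shared reactions. The unhashed day 1, round 1 pair, at 127 and 129 CPM, is not among these mice. Within macrophage cluster 23 alone, which held most EXP macrophages, Osm was 311 ± 78.8 CPM in CTRL (SD, n = 4) and 285 ± 106 in EXP (SD, n = 5), with a log2 fold change of -0.22 (SE 0.28, adjusted p = 0.808). In cluster 7 it was 137 ± 58.8 CPM in CTRL (SD, n = 5) and 165 ± 64.1 in EXP (SD, n = 3). Without the day 1, round 1 pair Osm was called over all kept cells (1.57, adjusted p = 0.0260), where the main value was 1.13 (adjusted p = 0.0929).

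Il6ra, the chain that lets a cell bind IL-6 directly, was read mainly in macrophages, dermal papilla cells and dendritic cells, at CTRL means of 168 ± 32.8 CPM (SD, n = 5), 130.04 ± 58.6 (SD, n = 4) and 105 ± 22.7 (SD, n = 5), with overlapping ranges. Pericytes and endothelial cells, the classes with the highest Il6, had 25.9 ± 3.60 and 42.3 ± 15.5 CPM of Il6ra in CTRL (SD, n = 5 each). Fibroblasts held 50.7% of CTRL Il6ra UMIs and 19.0% of EXP ones, and macrophages 17.3% and 33.1%.

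Il6ra fell in fibroblasts and macrophages taken as whole classes. Fibroblasts read 78.2 and 87.7 CPM at day 1, 83.9 and 67.7 at day 2 and 49.7 at day 4 in CTRL, and 57.7, 54.8, 36.8, 26.4 and 22.1 in EXP. Both arms were lowest at day 4, and every EXP library was below its CTRL partner, with an overlap between CTRL day 4 and EXP day 1. Il6ra changed by -1.15 (SE 0.14, edgeR adjusted p = 0.000500). Macrophages read 192, 179, 203, 134 and 133 CPM in CTRL and 129, 134, 108, 115 and 101 in EXP, a fall in 5 of 5 pairs (-0.64, SE 0.16, adjusted p = 0.0145). Both calls held in each of the 10 fits that left out 1 library. They were not made within the main EXP cluster of either class: Il6ra changed by -0.25 in fibroblast cluster 0 (SE 0.15, adjusted p = 0.317) and by -0.21 in macrophage cluster 23 (SE 0.17, adjusted p = 0.659), while fibroblast cluster 1 gave -0.997 (adjusted p = 0.000964). Over all kept cells Il6ra was also lower (-0.64, SE 0.17, adjusted p = 0.0224; 26.5% of genes called), a call lost in 5 of 10 such fits (adjusted p 0.0559 to 0.0627). Dendritic cells kept Il6ra at 105 ± 22.7 CPM in CTRL and 125 ± 48.3 in EXP (-0.06, 95% interval -0.45 to 0.33, adjusted p = 0.863).

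Il11ra1, the binding chain for IL-11, was highest in fibroblasts, at 276 ± 148 CPM in CTRL and 201 ± 78.0 in EXP (SD, n = 5 each). Next came unnamed cluster 27 (173 ± 124 CPM, CTRL) and unnamed cluster 6 (165 ± 53.8), and the ranges overlapped. Fibroblasts held 85.4 ± 4.02% of CTRL Il11ra1 UMIs and 53.3 ± 13.3% of EXP ones. The annotated locus overlaps other genes on both strands. Use of strand in counting is not given in the sources used here, and the near copies Il11ra2 and Gm13305 had 23 and 319 UMIs, so the Il11ra1 values are uncertain to that extent.

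In fibroblasts Il11ra1 read 172 and 119 CPM at day 1, 450.4 and 414 at day 2 and 226 at day 4 in CTRL, and 337, 144, 179.9, 182 and 160.2 in EXP. EXP was above CTRL in both rounds of day 1 and below it in the 3 later pairs. The log2 fold change was -0.52 (SE 0.33, edgeR adjusted p = 0.251). Without the day 1, round 1 pair it was -0.85 and was called (edgeR adjusted p = 0.0230). Mice as units, which shared reactions and also leave out that unhashed pair, gave -0.64 (adjusted p = 0.0115). In macrophages the transcript was scarce, 5.36 to 18.3 CPM in CTRL and 1.33 to 7.82 in EXP, and lower in 5 of 5 pairs (-1.95, SE 0.50, adjusted p = 0.0177); 3 of the 10 fits without 1 library lost this call (adjusted p 0.0502 to 0.0570), as did keeping doublets (-1.45, adjusted p = 0.0821). The fall of fibroblast transcripts in macrophages, given above, moved with it, and its part was not tested.

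Lifr, the LIF receptor, moved in opposite directions in fibroblasts and in endothelial and immune cells. It was highest in endothelial cells, at 161 ± 19.1 CPM in CTRL and 77.9 ± 26.5 in EXP (SD, n = 5 each), followed in CTRL by macrophages at 103 ± 39.9. Endothelial cells read 168 and 172 CPM at day 1, 157 and 130.1 at day 2 and 179 at day 4 in CTRL, and 111, 80.6, 39.7, 68.2 and 90.2 in EXP. All EXP libraries were below all CTRL libraries (-1.18, SE 0.17, edgeR adjusted p = 0.00119). Macrophages read 148, 128, 115, 53.3 and 69.9 CPM in CTRL and 81.8, 17.2, 17.1, 14.01 and 14.7 in EXP. The EXP library of day 1, round 1 was high among the EXP libraries and overlapped with CTRL; the log2 fold change was -2.16 (SE 0.37, adjusted p = 0.00328), and -2.58 without that pair (adjusted p = 0.00199). In macrophage cluster 23 alone Lifr was also lower (-1.92, SE 0.33, adjusted p = 0.0263; 0.711% of its genes were called).

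Fibroblast Lifr was low but separate between arms. CTRL libraries read 23.7, 20.4, 20.3, 21.0 and 18.2 CPM and EXP libraries 32.4, 44.4, 30.9, 33.2 and 28.1. Every EXP library was above every CTRL library (0.49, SE 0.12, edgeR adjusted p = 0.0104). Dendritic cells ran from 22.0 to 52.5 CPM in CTRL and from 10.1 to 36.9 in EXP (-1.23, SE 0.27, adjusted p = 0.0117), a call lost after thinning to 2000 UMIs (adjusted p = 0.15). Pericytes ran from 55.4 to 78.5 CPM in CTRL and from 13.0 to 58.3 in EXP, with both EXP libraries of day 1 at 57.0 and 58.3 (-1.02, SE 0.28, adjusted p = 0.0234; lost in 5 of 10 fits without 1 library, adjusted p 0.0588 to 0.0975). Over all kept cells Lifr was lower (-0.47, SE 0.14, adjusted p = 0.0329), a call lost in 7 of 10 such fits (adjusted p 0.0651 to 0.101). In tests of the difference between classes, chosen because Lifr was called in opposite directions in them, the fibroblast change exceeded that of endothelial cells by 1.59 (SE 0.24, adjusted p = 0.00165; 7.12% of genes differed) and that of macrophages by 2.62 (SE 0.43, adjusted p = 0.00298; 16.5%). As the same counts picked the pairs, these tests give the size of the difference and no separate support.

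**Figure D4:**
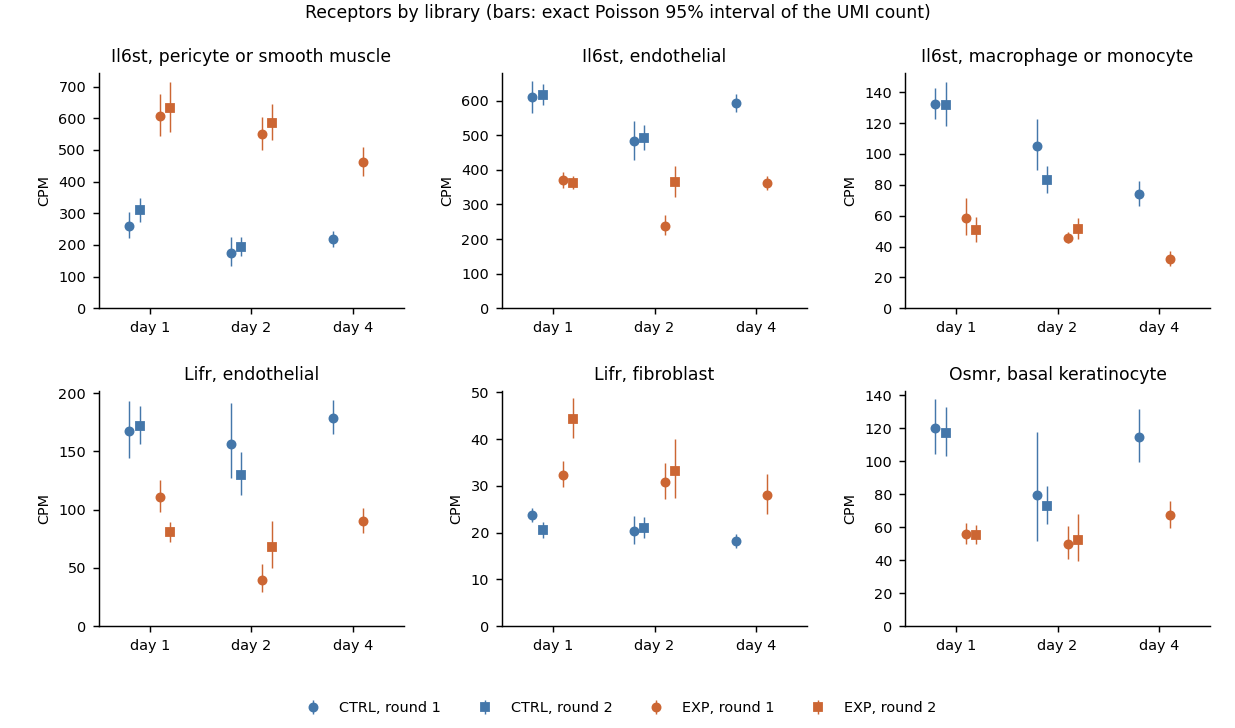
CPM of receptor genes in each library by day (circles round 1, squares round 2; blue CTRL, orange EXP; bars exact Poisson 95% intervals). EXP lies above CTRL for pericyte Il6st (462 to 632 against 176 to 309 CPM) and fibroblast Lifr, and below it for Il6st in endothelial cells and macrophages, Lifr in endothelial cells and Osmr in basal keratinocytes.

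Osmr, the signalling partner of gp130 for oncostatin M, was highest, among classes with enough cells in 4 libraries, in pericytes (259 ± 90.8 CPM in CTRL, 146 ± 15.5 in EXP) and endothelial cells (211 ± 14 and 139 ± 26.7), then fibroblasts (112 ± 9.56 and 117 ± 23.9) and basal keratinocytes (101 ± 22.8 and 56.2 ± 6.74; SD, n = 5 each). In CTRL endothelial cells stood apart from fibroblasts, and the other neighbours overlapped. Skeletal muscle cells, with enough cells in 3 CTRL libraries, read 278 to 395 CPM. Macrophages, which held most Osm, read 1.47 ± 1.09 CPM of Osmr in CTRL and 1.13 ± 0.778 in EXP (SD, n = 5 each). Fibroblasts held 68.6% of Osmr UMIs in CTRL and 44.8% in EXP.

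Basal keratinocytes read 120.5 and 117 CPM of Osmr at day 1, 79.7 and 72.9 at day 2 and 115 at day 4 in CTRL. EXP basal keratinocytes read 55.9, 55.4, 49.9, 52.2 and 67.4. The arms did not overlap, and the log2 fold change was -0.96 (SE 0.13, edgeR adjusted p = 0.00105), where 18.9% of genes were called. At clustering resolution 2 it was -0.59 (adjusted p = 0.0155). In the same class 6 of 6 fibroblast transcripts (median -3.95) and 9 of 18 dissociation-response genes (median -0.49) were lower; their part was not tested. Endothelial cells read 189.8 to 229 CPM in CTRL and 114 to 172 in EXP, again without overlap (-0.73, SE 0.12, adjusted p = 0.00244), a call lost after thinning to 2000 UMIs (adjusted p = 0.104). Pericytes read 165 to 385 CPM in CTRL and 122 to 164 in EXP (-0.87, SE 0.21, adjusted p = 0.0141). That call was lost when day 4 left the comparison through either of its libraries (edgeR adjusted p 0.0664 and 0.0729), in fits that are nearly the same. In fibroblasts Osmr did not pass (-0.15, 95% interval -0.40 to 0.11, adjusted p = 0.408). Over all kept cells it was lower in 5 of 5 pairs (-0.71, SE 0.12, adjusted p = 0.00404).

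Il6st, which encodes gp130, had its highest CTRL level in endothelial cells and its highest EXP level in pericytes. Pericytes read 260.2 and 309 CPM at day 1, 176 and 193 at day 2 and 219 at day 4 in CTRL. EXP pericytes read 608 and 632 at day 1, 550.0 and 586 at day 2 and 462 at day 4. All 5 EXP libraries were above all CTRL libraries, from day 1 on. Il6st changed by 1.21 (SE 0.15, edgeR adjusted p = 0.000696), and the call held in each of the 10 fits that left out 1 library (1.13 to 1.31).

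In endothelial, macrophage and dendritic cells Il6st fell without overlap between the arms. Endothelial cells read 611 and 617 CPM at day 1, 484 and 492 at day 2 and 593 at day 4 in CTRL, and 370.2, 363, 239, 365 and 361 in EXP (-0.84, SE 0.12, edgeR adjusted p = 0.00153). Macrophages read 132, 132, 105, 83.0 and 73.9 CPM in CTRL and 58.3, 50.7, 45.6, 51.2 and 31.8 in EXP (-1.26, SE 0.14, adjusted p = 0.000977). Dendritic cells read 169, 173, 150.1, 69.2 and 86.8 CPM in CTRL and 65.5, 68.5, 41.0, 36.5 and 35.8 in EXP (-1.64, SE 0.22, adjusted p = 0.00130). These 3 calls held in each fit that left out 1 library; the dendritic one was lost with doublets kept (adjusted p = 0.12). Within endothelial cluster 15 and macrophage cluster 23 the falls were smaller and not called, at -0.42 (SE 0.13, adjusted p = 0.0608) and -0.78 (SE 0.20, adjusted p = 0.11). Dissociation-response genes were lower in the same classes, 13 of 18 in endothelial cells, 9 in macrophages and 6 in dendritic cells, and their part was not tested.

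Tests of the difference were run for pairs of classes in which Il6st was already called in opposite directions. As the same counts picked the pairs, they give the size of the difference and no separate support. The pericyte change differed by 2.08 from endothelial cells (SE 0.19, edgeR adjusted p = 3.01e-05; 2.05% of genes differed), by 2.46 from macrophages (SE 0.19, adjusted p = 8.54e-06; 7.76%) and by 2.74 from dendritic cells (SE 0.27, adjusted p = 9.94e-05; 5.30%). From basal keratinocytes it differed by 1.86 (SE 0.19, adjusted p = 0.000165; 2.92%). Basal keratinocyte Il6st was lower (-0.66, SE 0.17, adjusted p = 0.0199), a call lost in 4 of 10 fits without 1 library (adjusted p 0.0533 to 0.105), without the day 1, round 1 pair (0.0893) and after thinning (0.187). At clustering resolution 2 it was -0.20 (SE 0.15, adjusted p = 0.396). Fibroblast Il6st was 261 ± 38.5 CPM in CTRL and 298 ± 86.0 in EXP (SD, n = 5 each), and its log2 fold change was -0.05 (95% interval -0.25 to 0.16, adjusted p = 0.773). Over all kept cells Il6st was lower in 5 of 5 pairs (-0.66, SE 0.13, adjusted p = 0.00877).

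Socs3, the STAT3-induced inhibitor of gp130, was a widespread transcript, with the highest means in Schwann cells (1203 ± 148 CPM in CTRL, n = 4; 1149.7 ± 60.2 in EXP, n = 5; SD) and, in CTRL, lymphatic endothelial cells (915 ± 194), pericytes (769.9 ± 70.7) and endothelial cells (698 ± 132; SD, n = 5 each). These ranges overlapped from neighbour to neighbour. Among the 12 promoters only that of Socs3 held the STAT letters, TTCTTAGAA, 154 to 146 bases before the start (in capitals), and it is shown for that match:
Socs3 (chr11:117969367-117969616, minus strand): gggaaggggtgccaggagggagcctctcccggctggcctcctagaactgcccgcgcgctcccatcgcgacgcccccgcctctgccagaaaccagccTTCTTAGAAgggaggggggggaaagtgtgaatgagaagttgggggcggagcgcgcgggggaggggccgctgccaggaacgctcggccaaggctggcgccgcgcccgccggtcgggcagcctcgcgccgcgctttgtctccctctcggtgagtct

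Socs3 fell in 3 vascular classes. Pericytes read 755 and 784 CPM at day 1, 707 and 719 at day 2 and 884 at day 4 in CTRL, and 561, 692, 518, 357 and 587 in EXP, with no overlap (-0.61, SE 0.15, edgeR adjusted p = 0.0164). Endothelial cells ran from 522 to 826 CPM in CTRL and from 332 to 596 in EXP (-0.67, SE 0.17, adjusted p = 0.0238). Lymphatic endothelial cells ran from 641 to 1111 CPM in CTRL and from 545 to 718 in EXP (-0.63, SE 0.18, adjusted p = 0.0330; 12.0% of genes called). Both endothelial values were lower in 5 of 5 pairs. So pericytes had more Il6st and less Socs3 RNA in EXP, and endothelial cells less of each.

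Each of these Socs3 calls was lost in some fits. Without 1 library, 7 of 10 fits lost the endothelial call (edgeR adjusted p 0.0503 to 0.0675) and 9 of 10 the lymphatic one (0.0525 to 0.0888). The pericyte call was lost in the 2 nearly identical fits without a day 4 library (0.0680 and 0.0734). Genes of the dissociation response moved the same way: of 18, 13 were lower in endothelial cells (median log2 fold change -0.59), 15 in lymphatic endothelial cells (-0.95) and 6 in pericytes (-0.48), with none higher; their part was not tested. In fibroblasts Socs3 read 532 ± 87.2 CPM in CTRL and 582 ± 151 in EXP (SD, n = 5 each; -0.10, SE 0.10, adjusted p = 0.498). In dermal papilla cells it ran from 447 to 686 CPM in 4 CTRL libraries and from 584 to 1484 in 4 EXP libraries, higher in 3 of 4 pairs and not called (0.80, SE 0.23, adjusted p = 0.0614; 3.74% of genes called).

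Because classes differed in cluster make-up, the test was repeated within single clusters, an addition made after the classes were seen; the clusters come from 2000 variable genes, from which no member was set aside. Over 8 clusters with enough libraries 9.39% of gene and cluster pairs were called. Members were called in 6 of them and in neither dendritic cluster 29 nor fibroblast cluster 13 (5.87% and 6.32% of genes called). Fibroblast cluster 0, the main EXP cluster, kept the higher Il11, with 16.1 ± 2.87 CPM in CTRL and 101 ± 102 in EXP (2.15, SE 0.61, edgeR adjusted p = 0.0420; 10.6% of its genes called). Cluster 33 held the highest mean, 5.54 ± 2.76 CPM in 5 CTRL libraries and 410 ± 557 in 4 EXP libraries, from 6.97 to 1191; Il11 did not pass the count filter there and was not tested (8.50% of that cluster's genes were called). In fibroblast cluster 1 the members moved as a mixed group: Il6 rose from 201 ± 43.7 to 402 ± 139 CPM (0.88, SE 0.21, adjusted p = 0.0106), Osmr from 54.8 ± 9.61 to 133 ± 28.8 (1.24, SE 0.18, adjusted p = 0.000253) and Lifr by 0.95 (SE 0.26, adjusted p = 0.0204), while Il6ra was lower (-0.997, SE 0.18, adjusted p = 0.000964; 14.4% called). Il6 and Osmr in the whole fibroblast class were near 0 change. In cluster 0 the Lifr value was similar but not called (0.94, SE 0.28, adjusted p = 0.0517).

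**Figure D5:**
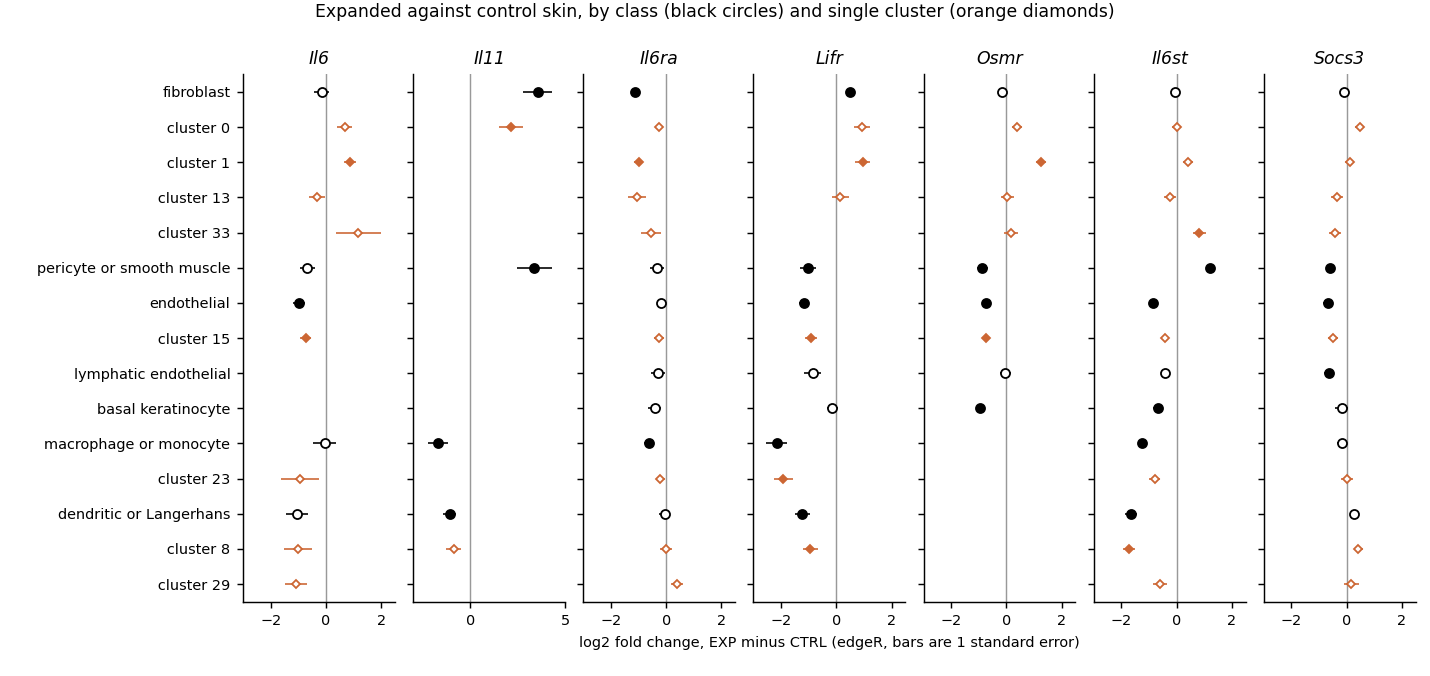
Log2 fold change, EXP minus CTRL, with 1 SE for 7 members (panels), by cell class (black circles) and by single cluster (orange diamonds); filled marks have an adjusted p under 0.05. Il6st is higher in pericytes (1.21) and lower in endothelial cells (-0.84), macrophages (-1.26) and dendritic cells (-1.64), and Lifr is higher in fibroblasts (0.49) and lower in macrophages (-2.16).

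Endothelial cluster 15, with 78.5% of CTRL and 84.3% of EXP endothelial cells, kept the lower Il6 (-0.74, SE 0.20, edgeR adjusted p = 0.0329), Lifr (-0.91, SE 0.21, adjusted p = 0.0187) and Osmr (-0.74, SE 0.12, adjusted p = 0.00420), where 9.67% of genes were called. It lost the Il6st call, as above, and that of Socs3 (-0.50, SE 0.17, adjusted p = 0.0759). Dendritic cluster 8 kept the lower Il6st (-1.72, SE 0.22, adjusted p = 0.00166) and Lifr (-0.94, SE 0.27, adjusted p = 0.0351; 18.0% of its genes called) and lost that of Il11 (-0.88, SE 0.38, adjusted p = 0.12). Of 7 members tested in macrophage cluster 23, Lifr was the 1 called. Il6st in that cluster was 69.7 CPM in CTRL and 44.8 in EXP. Pericytes and basal keratinocytes were 1 cluster each at this resolution, which gives no value within them; resolution 2 changed the basal values as given above.

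Change of the EXP effect with day was tested as an interaction. None of 98 member and class pairs was called by edgeR (smallest adjusted p = 0.609), where 21 had an unadjusted p under 0.05 and 0.00466% of all gene and class pairs were called (0.0671% in dermal papilla cells, 0.0108% in endothelial cells and 0.00% in each other class). With 1 library per arm at day 4 and 2 at the other days, the rise of fibroblast Il11 after day 1 is a description of the libraries and mice above.

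Other genes of the pathway moved in both directions. Of 12 further gp130-family ligands and receptors, 5 were tested in fibroblasts: Clcf1, a ligand of the CNTF receptor, rose by 1.75 on the log2 scale (SE 0.27, edgeR adjusted p = 0.000977), Cntfr, the CNTF receptor chain, by 1.86 (SE 0.30, adjusted p = 0.00119), and Il31ra, the partner of Osmr in the IL-31 receptor, fell by 2.44 (SE 0.23, adjusted p = 0.000211). The median of the 5 was 1.30, beside 0.02 over all genes tested. Clcf1 also rose in macrophages, by 1.19 (SE 0.35, adjusted p = 0.0327).

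Of 18 JAK-STAT signalling and feedback genes, 1 was higher and 5 lower in fibroblasts (median -0.19, all genes 0.02), none higher and 6 of 16 tested lower in pericytes (median -0.36, all genes 0.003), none higher and 7 lower in basal keratinocytes, and 2 higher and 2 lower in macrophages. Over all genes 33.6%, 19.1%, 18.9% and 25.9% were called in these 4 classes, so the fibroblast count of 6 in 18 was at the background and the macrophage count of 4 in 18 below it. In fibroblasts Jak2, a kinase of the pathway, rose by 0.48 (SE 0.10, edgeR adjusted p = 0.00406), Adam17, a protease that sheds IL-6 receptor, fell by 0.62 (SE 0.08, adjusted p = 0.000585) and Cish, a STAT5 feedback gene, fell by 0.71 (SE 0.16, adjusted p = 0.00589). In macrophages Stat3 itself fell by 0.86 (SE 0.17, adjusted p = 0.00520), Socs2 rose by 1.05 (SE 0.28, adjusted p = 0.0187) and Stat5a rose by 0.60 (SE 0.18, adjusted p = 0.0345).

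Of 22 STAT3-linked and acute phase genes, 5 were higher and 6 lower in fibroblasts, 5 higher and 4 lower in macrophages, 3 higher and 5 lower of 18 tested in endothelial cells, and 3 higher and 6 lower of 19 tested in pericytes. The shares of all genes called in these classes were 33.6%, 25.9%, 13.2% and 19.1%. Dermal papilla cells had 7 higher and none lower of 20 tested (3.74% of genes called). Lymphatic endothelial cells had 6 higher and 4 lower of 17 (12.0%). Basal keratinocytes had none higher and 6 lower of 16 (18.9%), and dendritic cells 2 higher and 7 lower of 19 (20.2%). Whether the list exceeds these shares was not tested. The genes with the smallest adjusted p in fibroblasts were Fgl2, a fibrinogen-like protein, which fell by 2.08 (SE 0.24, edgeR adjusted p = 0.000397), Lcn2, an iron-binding acute phase protein, which rose by 5.05 (SE 0.68, adjusted p = 0.000610), and Timp1, a metalloproteinase inhibitor, which rose by 2.89 (SE 0.39, adjusted p = 0.000630). In macrophages they were haptoglobin Hp (up by 3.16), Saa3 (up by 4.71) and Timp1 (up by 1.66), with adjusted p of 0.000930, 0.00116 and 0.00116. Neutrophil transcripts rose in the same 2 classes, S100a8 by 5.02 in fibroblasts and 5.39 in macrophages; the part of RNA from other cells was not tested.

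Genes whose levels followed a member most closely were sought over 43 class-by-arm means on the log2(CPM + 1) scale, which share libraries and depth, so r is a description. Nearest to Il6 were Amigo2 (Pearson r = 0.805), Angpt1 (0.752) and Gm13889 (0.751). Nearest to Osm were Lilrb4a (0.961), Plek (0.960) and Lilr4b (0.959), and nearest to Osmr were St5 (0.924), Tln2 (0.913) and Rbfox2 (0.908). Socs3 had Dlgap4 (0.775), Irf1 (0.773) and Marveld1 (0.721).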

How the data were processed

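Single-cell 3' mRNA and hashtag libraries were sequenced from sorted live skin cells. The deposited matrices hold UMI counts per gene and cell, and the submitters' processing notes name Cell Ranger 6.1.2 and mm10; hashtag counts were deposited for 8 libraries. For CTRL day 1, round 2 the titles of the mRNA and hashtag samples look exchanged; the recorded library type, which the matrix of genes fits, was followed.

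Barcodes under 200 genes or 500 UMIs, or over 10% in mitochondrial UMIs, were dropped (47251 of 55174 passed). Doublets (2468) were the cells with the highest Scrublet scores, up to a preset rate of 0.008 per 1000 cells, and those with more than 1 hashtag and no clear leading one. By score 1.71% to 6.86% of a library was removed, where Scrublet's automatic cut called 0.208% to 3.13%. Clustering (scanpy 1.11.5, Leiden, 2000 variable genes, 30 components, 15 neighbours, resolution 1) gave clusters named from marker lists. Counts were summed per library and class (at least 20 cells, at least 4 libraries per arm) and tested with edgeR 4.0.16 (quasi-likelihood, TMM, filterByExpr, day and arm; R 4.3.3). Alternatives were DESeq2 1.42.0, other scaling, no filter, a replicate block, thinning to 2000 UMIs, doublets kept, resolution 2, mice as units and leaving out each library. On data simulated from the fibroblast sums (12744 genes) the test found 71% of 2-fold and 97% of 4-fold changes, and 5.08% of its calls were false. Recovery of 2-fold changes was lower in Schwann cells (44%), pericytes (51%) and dermal papilla cells (59%), and highest in basal keratinocytes (79%). False calls ran from 1.29% over all kept cells to 8.52% in macrophages.

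The 10 members and the gene lists were chosen with earlier results of these data known. All 10 members are described; other genes are the 3 with the smallest adjusted p of each list in fibroblasts and macrophages, and the 3 most like Il6, Osm, Osmr and Socs3 among genes reaching 10 CPM. The CTRL and EXP libraries of a day and round are paired through the shared sequencing round. The libraries of a pair correlated at r = 0.25 to 0.53 over all kept cells. Within macrophages and fibroblasts r ran from -0.01 and 0.02 to 0.51, lowest in round 1 of day 2. Day 4, with 1 library per arm, also gave a positive r (0.47 over all kept cells), which deviations from a day mean could not. These values therefore still hold shared effects of day and do not measure pairing by round alone. The 6 lists of transcripts of other cell types and of dissociation were summed as context. Gene positions come from GENCODE vM21 and upstream sequences from RefSeq, both GRCm38.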

Additional observations from a re-analysis of the deposited data

Results flagged for a closer look

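In 19 of 196 groups of libraries tested (5 or 4 libraries of an arm in a class), the highest or lowest library lay apart from the others; chance gives about 1 in 20. Il11ra1 accounted for 7 of them. The EXP library of day 1, round 1 was high for Il11ra1 over all kept cells (205 CPM), in fibroblasts (337), macrophages (7.82), pericytes (39.5) and unnamed cluster 6 (268), and for Lifr in macrophages (81.8). The CTRL library of day 2, round 1 was high for Il11ra1 in pericytes (127 CPM) and unnamed cluster 6 (259). High Il11 values were found in EXP day 1, round 2 dendritic cells (8.22 CPM), and in unnamed cluster 6 in CTRL day 1, round 1 (12.1) and EXP day 2, round 1 (28.0). Other high values were Il6 in Schwann cells of EXP day 1, round 2 (96.0 CPM), Il6ra in endothelial cells of CTRL day 2, round 2 (68.8) and unnamed cluster 27 of CTRL day 1, round 2 (24.9), and Lif in pericytes of CTRL day 1, round 2 (42.7). Socs3 was high at EXP day 4 in dendritic cells (413 CPM) and unnamed cluster 20 (169). Low values were Il6ra in T cells of EXP day 2, round 2 (30.4 CPM) and Il6st in endothelial cells of EXP day 2, round 1 (239).

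The EXP effect was compared between classes in 12 tests of the difference, with edgeR p-values adjusted over all genes. The pairs of classes were chosen because a member was already called in opposite directions in them. As the same counts picked the pairs, the tests give the size of the difference and no separate support. For Il11 the fibroblast change exceeded the dendritic one by 5.21 and the macrophage one by 6.69 on the log2 scale (13.2% and 16.5% of genes differed). The pericyte change exceeded them by 4.499 and 5.90 (5.30% and 7.76%). The immune side of these Il11 tests rests on few UMIs per library. For Il6st the pericyte change exceeded that of basal keratinocytes by 1.86, dendritic cells by 2.74, endothelial cells by 2.08 and macrophages by 2.46. For Lifr the fibroblast change exceeded that of dendritic cells by 1.80, endothelial cells by 1.59, macrophages by 2.62 and pericytes by 1.56. The edgeR adjusted p ran from 8.54e-06 to 0.0190, and 2.05% to 16.5% of all genes differed between these classes.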

How the results depend on the processing

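The 24 calls by class became 24 with DESeq2 or other size factors, 26 with the replicate block, 34 without a low-count filter, 16 with cells thinned to 2000 UMIs, 22 with doublets kept, 21 at clustering resolution 2 and 18 with mice as units. Leaving out 1 library gave 15 to 27, the fewest without CTRL day 4. These settings tested different sets of pairs, so the counts do not measure calls lost or gained alone. With mice as units, pericytes and lymphatic endothelial cells were not tested, and the unhashed day 1, round 1 pair was left out. There 33.6% of all gene and class pairs were called, against 13.1% in the main fit. The block lost no call and added Il6 over all kept cells, Osm in macrophages and Lif in unnamed cluster 6. The 4 calls over all kept cells became 8 with DESeq2 and 2 to 7 without 1 library. The interaction with day gave 0 calls with either scaling and 14 without a filter. Fibroblast shares of Il11 fell to 28.6% (CTRL) and 51.1% (EXP) with doublets kept; those of Lif to 75.6% (CTRL) with doublets kept and to 74.5% (CTRL) and 48.6% (EXP) when thinned; macrophage shares of Osm to 48.9% (CTRL) with doublets kept and 52.8% (EXP) when thinned. The direction turned within single fibroblast clusters for 3 uncalled class values: Il6 (0.88, cluster 1), Osmr (1.24, cluster 1) and Il6st (0.83, cluster 33). The cause was not tested. Il11 in immune classes, the lowest Il11 values in pericytes, Osm outside myeloid and mast cells and Il11ra1 in macrophages rest on few UMIs per library, and day 4 on 1 library per arm.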

Other observations

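Skeletal muscle cells, found in 3 CTRL libraries in sufficient number and in no EXP library, read 278 to 395 CPM of Osmr and 24.0 to 107 CPM of Il11. They entered no comparison.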
